A study of Vitis vinifera with 12 samples.

Results

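Roots were compared with leaves of grapevine (Vitis vinifera cv Corvina) on an oligonucleotide array of miRNA probes, with 2 arrays per organ, which are 4 of the 12 arrays of the series. The probes described are the 136 distinct sequences, of 1584 tested, whose target overlaps a mature miRNA that the study lists. The overlap had to span at least 18 bases and to match at every base, so a mismatch at its end excluded a probe. The target is the reverse complement of the probe, so the choice rests on sequence and not on signal. These 136 sequences correspond to 202 of 1952 array probes, since probes of equal sequence were averaged, and to 70 listed miRNA sequences of 27 families. Of the 136, 53 match a listed sequence over its whole length and without further bases. A name such as miR397a stands for the first probe of that listed sequence and for all miRNAs that share it, and further probes of the same sequence are numbered (miR397a probe 2).

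The roots were labelled as a pool and came from plants cultivated in vitro, while the leaves pool was collected from field-grown plants before flowering. No treatment, age or genetic change is given for either group, and the labels give cultivar Corvina for both. Organ and growth condition therefore cannot be told apart in any value that follows. Each array was hybridized with low molecular weight (LMW) RNA from its own extraction, labelled with Cy5, but whether the extractions came from separate plants is not stated, so p-values measure only the spread between these arrays, which may be technical. The array holds no mRNA marker of root or leaf cells, so the tissue labels could not be checked against markers. In such bulk RNA, fewer cells that contain a miRNA and less miRNA per cell cannot be told apart.

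Plant miRNAs are short RNAs cut from a stem-loop precursor, loaded into an ARGONAUTE protein and used to recognize mRNAs with near-perfect complementarity, which are then cleaved or translated less. Many families are old and are shared by most flowering plants, and their targets are often transcription factors, hormone response genes or proteins of mineral nutrition. In Arabidopsis, miR397, miR398 and miR408 rise when copper is scarce and lower copper proteins that can be spared, while miR399 and miR395 rise under phosphate and sulfate limitation.

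The targets below are shown because the differences between roots and leaves turn on them. Each is the reverse complement of the deposited probe, from 5′ to 3′, and capitals mark bases 2 to 8 of the listed mature sequence, the seed, as far as the probe covers them. The first group holds members that were higher in roots past the test, together with miR398a, which was not. The second probes of miR397a and miR408 also passed and are not shown.
miR397a: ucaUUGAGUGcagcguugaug
miR398b: ucUCAUGUGuucucaggucg
miR398a: CUCAGGucaccccuuugggg
miR408: auGCACUGCcucuucccuggc
miR399b probe 2: uGCCAAAGgagaguugcccu
The second group holds selected members that did not pass the test, from families described below. Some members with larger differences, such as miR171c, are not shown. miR399a shares its seed with miR399b.
miR399a: uGCCAAAGgagaauugcccug
miR395a: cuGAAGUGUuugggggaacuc
miR390: aAGCUCAGgagggauagcgcc
miR172a: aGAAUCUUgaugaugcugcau
miR169f: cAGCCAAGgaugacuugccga
miR164a: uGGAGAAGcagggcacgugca
miR171b: uGAUUGAGccgcgucaauauc

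The 4 arrays differed in quality. The background level of an array is the average of the 14 controls for non-binding and degradation plus 2 of their SDs, and it was 1347 and 1494 units of raw intensity in roots and 912 and 3586 in leaves. A ubiquitin control was the brightest of these on all 4, with 5745 units on leaf replicate 2. Of the 136 members, 37 and 41 were above background on the root arrays, 57 on leaf replicate 1 and 8 on leaf replicate 2. The 2 root arrays correlated with r = 0.955 across members and differed by a median of 0.36 on the log2 scale, and the 2 leaf arrays with r = 0.811 and a median of 1.06, which describes probes and not replicates. Between 30.6% and 55.2% of raw values on the 4 arrays stood at or below 1 unit. After quantile normalization such values had reached up to 80.0 units on root replicate 2, so differences between levels this low have no order.

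Across all 1584 probes, 24 were higher in roots (1.52%) and 7 lower (0.442%) at an adjusted p under 0.05 in limma, and of the 136 members 6 were higher and 0 lower. At an unadjusted p under 0.05 in limma, 19 members were higher and 22 lower. The share of all probes at this threshold was not counted, so these counts do not set the members apart. The 6 members past the adjusted threshold were both probes of miR397a, both of miR408, miR398b and miR399b probe 2. Both root arrays lay above both leaf arrays in 40 members, where 16.8% of all probes did so, and below both in a further 40, where 14.3% of all probes did so. The members' median difference, roots minus leaves, was -0.10 on the log2 scale, against 0.04 over all probes, with 64 members above 0 and 72 below. The counts moved with the scaling: raw medians scaled to the 75th percentile gave 11 members higher and 5 lower, and unscaled raw medians gave 10 and 3. Scaling on the positive controls changed the split over all probes to 31 higher and 2 lower.

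**Figure D1:**
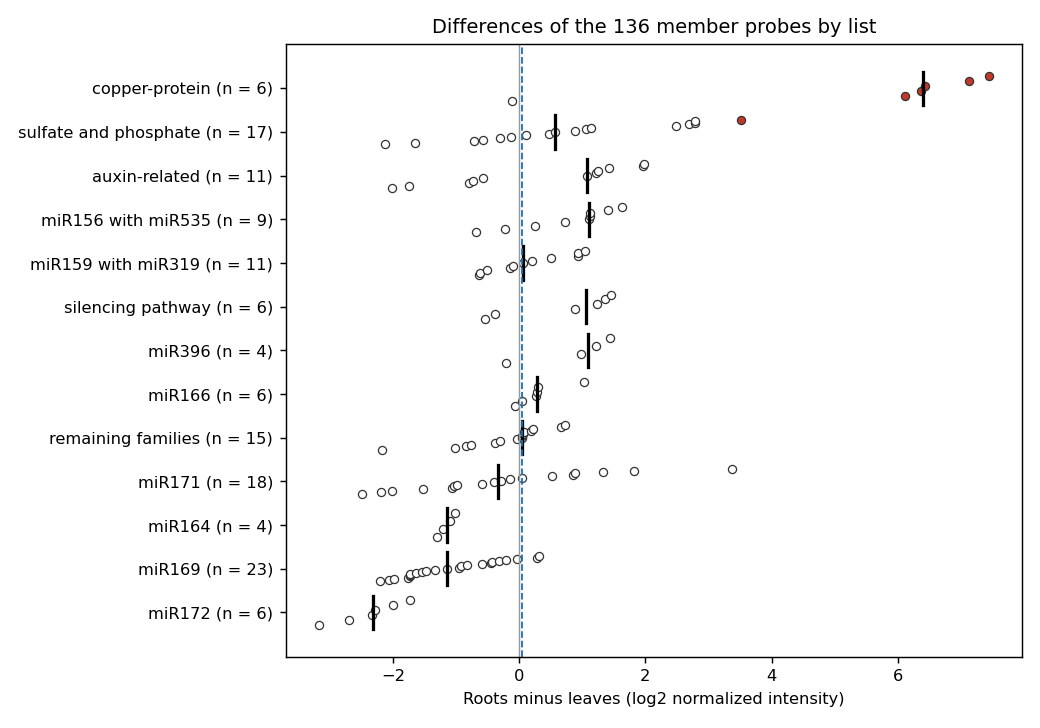
Difference between roots and leaves of each of the 136 members on the log2 scale of normalized intensity (horizontal axis), by list of families. Red points passed the test at an adjusted p under 0.05, black bars are list medians and the dashed blue line is the median of all 1584 probes. The 5 red points of the copper-protein list lie between 6.11 and 7.44, and the other red point, miR399b probe 2, at 3.51.

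The copper-protein miRNAs gave 5 of the 6 calls among the members. miR397 targets laccases, miR408 targets plantacyanin and laccases, and miR398 targets a copper/zinc superoxide dismutase in other plants. Of the 6 members in this list 5 were higher in roots and 1 did not pass the test, with a list median of 6.40. The list was chosen with earlier results of these data known and is not independent evidence of its direction.

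miR408 had log2 levels of 15.12 and 15.73 on the root arrays against 9.03 and 7.56 on the leaf arrays. Its raw intensities were 50197 and 65535 in roots and 389 and 104.5 in leaves. The value of 65535 is the upper limit of the scanner, so the level on root replicate 2 is a lower limit. The difference was 7.13 ± 0.90 (SE, n = 2 per organ, adjusted p = 0.00248). No leaf array was above background, so the change is given as a bound: at least 22.2-fold higher in roots. For this and later bounds, an array of the lower organ took the lowest normalized level above its background, unless its own value was higher.

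The second probe of miR408, which is 1 base shorter, had log2 levels of 14.62 and 15.94 in roots and of 8.59 and 7.09 in leaves. It also reached the scanner limit on root replicate 2 and was at least 20.2-fold higher in roots (difference 7.44 ± 0.91, adjusted p = 0.00212). The mismatch partner of neither probe showed a difference past the test, with 1.02 and 0.81.

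miR397a had the same log2 level, 14.25, on both root arrays, against 8.08 and 7.55 on the leaf arrays. In raw units this was 21783 and 26442 in roots and 160.5 and 103.8 in leaves, so the organs did not overlap before normalization either. The difference was 6.43 ± 0.53 (SE, n = 2 per organ, adjusted p = 0.00036), or at least 9.83-fold. miR397a probe 2, 1 base shorter, had levels of 13.81 and 13.38 in roots and of 7.19 and 7.27 in leaves, a rise of at least 6.25-fold (adjusted p = 0.00036). The ratio of perfect match over mismatch of miR397a was 74.1 and 8.08 in roots but 0.181 and 1.75 in leaves. On the log2 scale of this ratio the call of both miR397a probes was lost, with differences of 4.97 (adjusted p = 0.0853) and 4.23 (adjusted p = 0.200).

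miR398b had log2 levels of 12.80 and 11.95 in roots and of 6.56 and 5.97 in leaves. Its raw intensities were 5599 and 5748 in roots and 37.0 and 6.52 in leaves, without overlap. It was at least 2.69-fold higher in roots, with a difference of 6.11 ± 0.59 (SE, n = 2 per organ, adjusted p = 0.000733). The lowest leaf levels above background, 9.99 and 11.91 on the 2 arrays, set this bound.

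The single miR398a member was not called. Its log2 levels were 8.33 and 8.30 in roots and 9.54 and 7.31 in leaves, none above background. The root values lay between the leaf values, with a difference of -0.11 and a 95% interval from -1.56 to 1.34. Called probes outside the members that share bases with it were higher in roots and are given below. The target of this member starts 6 bases after that of miR-62, which is among those probes. The member alone therefore does not show that miR398a was alike in the organs.

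Outside roots and leaves, these miRNAs had low levels. Over the 8 arrays of young inflorescences and berries, miR397a ranged from 6.30 to 9.08 on the log2 scale with a median of 7.65, and was above background on 0 of them. miR398b ranged from 4.66 to 7.12 with a median of 5.99, also above background on 0. miR408 ranged from 7.12 to 10.33 with a median of 9.01, and 1 of the 8 arrays, a green berry array, was above background. The lower root array of each of the 5 called probes lay between 4.71 and 5.17 above the highest of the 10 arrays that were not from roots. This is a description without a test.

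**Figure D2:**
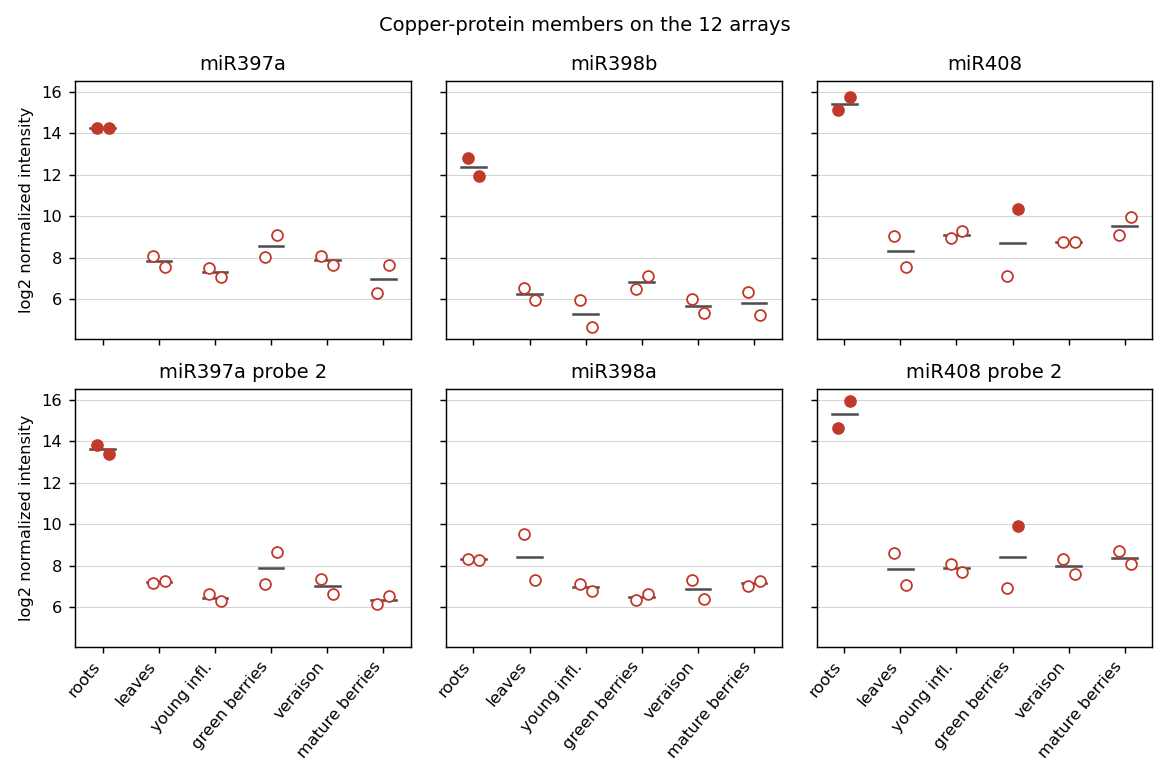
Log2 normalized intensity (vertical axis) of the 6 copper-protein members on the 12 arrays, by tissue (horizontal axis); points are arrays, filled where the raw median was above that array's background, and bars are means of 2 arrays. The root points of miR397a, miR398b and miR408 lie between 11.95 and 15.94, above all other points of the same panel, and the root points of miR398a lie at 8.33 and 8.30.

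The array also holds probes in other frames along the precursors, which are not members because they do not meet the rule of an exact overlap of at least 18 bases. Some were moved by design. The paper reports miR398 mature sequences in shifted frames. For miR397a and miR408, moved probes start 5 bases before and 6 bases after the first member. The miR398b member starts 5 bases before miR-63, and the miR398a member 6 bases after miR-62. By this spacing the miR398 members hold the places of moved probes, and miR-62 and miR-63 those of unmoved ones. Among the probes called outside the members, 18 were higher in roots and 7 lower. Of the 18, 10 shared at least 9 bases with a copper-protein target on the same strand and 4 shared 10 bases with the complement of one. The targets of 4 of them are shown, in lower case throughout: 1 for each of miR398b, miR398a and miR408 that overlaps the member, and 1 that matches a complement.
miR-63: uguguucucaggucgccccug
miR-62: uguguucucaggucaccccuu
miR-328: uacccaugcacugccucuuc
miR-873: caggagugaccugagaaucaca
miR-63 starts 5 bases further 3′ than miR398b and shares 15 bases with it. It had log2 levels of 14.87 and 14.34 in roots and of 7.95 and 6.94 in leaves, a difference of 7.16 (adjusted p = 0.00392), and was above background on both root arrays and neither leaf array. miR-62 shares 15 bases with miR398a, starting 6 bases before it. It had 13.40 and 12.64 in roots against 9.92 and 7.46 in leaves, a difference of 4.32 (adjusted p = 0.0354), unlike the miR398a member. miR-665 shares 14 bases with miR398a and differed by 4.63 (adjusted p = 0.0186). miR-292 shares 14 with miR398b and differed by 5.69 (adjusted p = 0.00212). These probes were above background on both root arrays. Each shares a run of bases with both miR398a and miR398b, so binding of the 2 miRNAs cannot be told apart. miR-328, which starts 5 bases before miR408, differed by 7.36 (adjusted p = 0.00116). miR-873 shares 10 bases with the complement of miR398a and differed by 5.18 (adjusted p = 0.00498).

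Over miR397a and miR408, the probes called higher started within 6 bases of the member's frame. Over miR398b a probe 11 bases after the member was called (3.79, adjusted p = 0.00212) and that 5 bases before it was not (1.42, adjusted p = 0.345). The largest difference there, 7.16, was that of miR-63, which starts 5 bases after the member. Starts counted from the member are not comparable across these miRNAs, since the miR398b member holds the place of a moved probe. For miR397a, probes starting 5 bases before and 6 bases after it were higher by 5.03 and 5.13, and those starting 10 bases to either side differed by 0.64 and 0.63 and did not pass the test. For miR408 the probe 6 bases after it was higher by 2.54 (adjusted p = 0.0151), and those 10 bases to either side differed by -0.28 and 0.34. The probes for the opposite strand of miR397a, miR398b and miR408 differed by 0.16, -0.32 and -0.78, none past the test. That of miR398b overlaps by only 15 bases. Another probe, miR-1118, shares 10 bases with the complement of miR398b and was called higher (2.34, adjusted p = 0.0207). The probes of this paragraph share bases with the members or their complements, so they are not separate evidence of the difference.

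**Figure D3:**
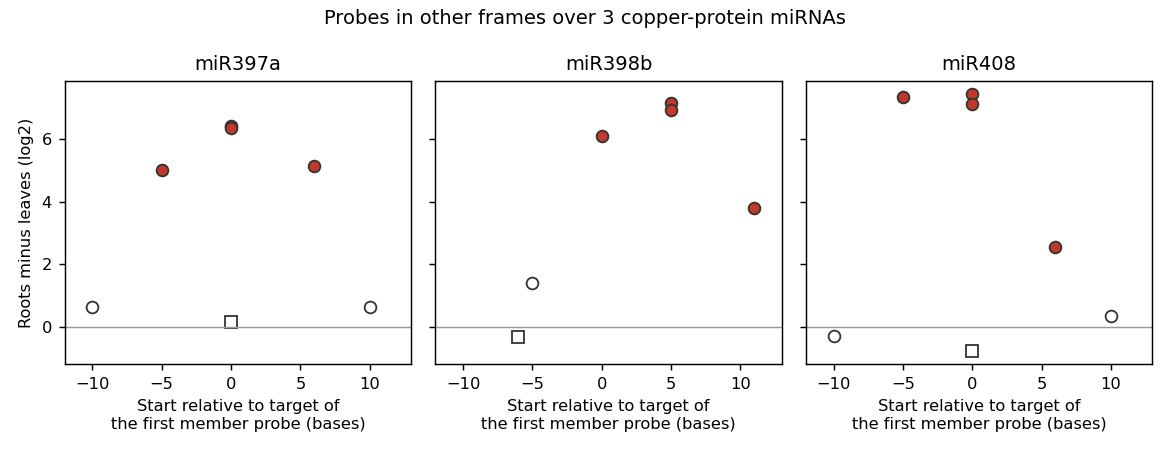
Difference between roots and leaves on the log2 scale (vertical axis) of probes over miR397a, miR398b and miR408, against the start of the probe's target relative to that of the first member probe in bases (horizontal axis). Circles are probes of the same strand, squares probes of the opposite strand, and red marks passed the test. Probes 10 bases away from miR397a and miR408 lie between -0.28 and 0.64.

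Among the phosphate and sulfate miRNAs, most miR399 members lay higher on the root arrays. miR399 lowers a ubiquitin-conjugating enzyme (PHO2) that restrains phosphate uptake in Arabidopsis, and miR395 lowers ATP sulfurylases and a sulfate transporter. Of 13 miR399 members, 1 was higher past the test, 12 were not called, and in 10 both root arrays lay above both leaf arrays (16.8% of all probes). The median of the 13 was 1.06, but 11 of them were above background on none of the 4 arrays. Probes of this family share most of their bases, so the 13 are not independent.

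miR399b probe 2 had log2 levels of 10.34 and 10.35 in roots and of 6.47 and 7.20 in leaves, with raw intensities of 1031 and 1489 against 33.3 and 75.2. The organs did not overlap and the difference was 3.51 ± 0.66 (SE, n = 2 per organ, adjusted p = 0.0275), but the root arrays were both under background, so no fold is given. The call was lost without any one of the 4 arrays, with adjusted p between 0.0827 (without leaf replicate 2) and 0.190 (without root replicate 1).

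The full-length miR399b had 10.33 and 10.25 in roots and 7.45 and 7.57 in leaves, a difference of 2.78 (adjusted p = 0.161). miR399a had 10.08 and 10.66 in roots and 8.13 and 7.03 in leaves, a difference of 2.79 (adjusted p = 0.161), and miR399i 10.60 and 10.70 against 7.93 and 7.97, a difference of 2.70 (adjusted p = 0.150). These 3 passed the test with raw medians scaled to the 75th percentile or left unscaled, where their differences were 3.40 to 3.70. miR399d and miR399f, by contrast, stood at 6.27 and 6.26 on root replicate 1 and at 4.52 each on root replicate 2, where their raw values were 1 unit. A further called probe, miR-698, shares 20 bases with the target of the miR399i probe and differed by 3.35 (adjusted p = 0.0294). It was above background on both root arrays and neither leaf array. Its target differs from that of miR399b probe 2 only at the first base, and this mismatch alone kept it from being a member.

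miR395a went the other way without passing the test. Its log2 levels were 10.55 and 8.60 in roots and 11.49 and 11.93 in leaves, with both leaf arrays above background and neither root array. The difference was -2.13 ± 0.84 (adjusted p = 0.468), and the 2 root arrays differed from each other by almost as much. miR395n differed by -0.30, with no array above background.

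**Figure D4:**
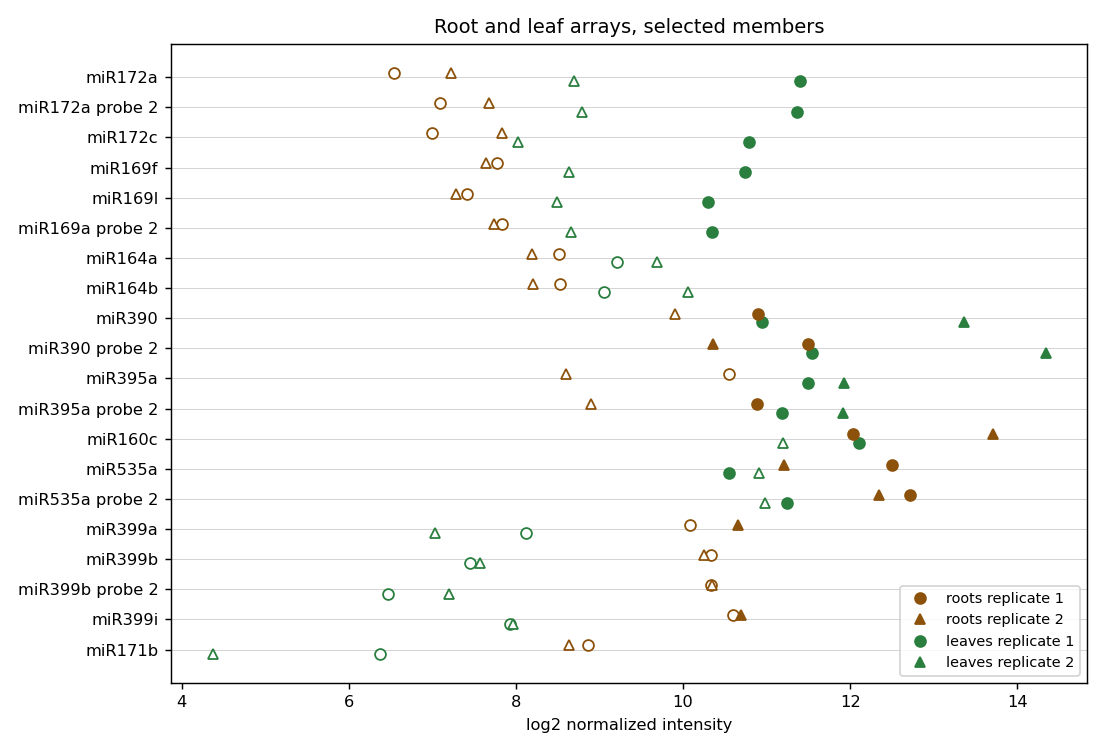
Log2 normalized intensity (horizontal axis) of 20 members on the 2 root (brown) and 2 leaf (green) arrays; circles are replicate 1, triangles replicate 2, and filled marks were above that array's background. The miR172 and miR169 members lie lower in roots, with leaf replicate 1 apart from leaf replicate 2, and the miR399 members higher in roots.

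The miR172 members had the lowest differences as a family. miR172 represses APETALA2-like transcription factors that govern flowering time, floral organs and the change from juvenile to adult shoots. Of its 6 members 0 passed the test, all 6 differences were negative and the median was -2.31. Both root arrays lay below both leaf arrays in all 6 (14.3% of all probes). The 6 probes share most of their bases and are not independent.

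miR172a had log2 levels of 6.54 and 7.23 in roots and of 11.40 and 8.69 in leaves. Its raw intensities were 46.0 and 61.5 in roots against 1883 and 303 in leaves, and only leaf replicate 1 was above background. The difference was -3.17 ± 0.88 (adjusted p = 0.166). It passed the test without leaf replicate 2 (difference -4.52, adjusted p = 0.0345) and was -1.81 without leaf replicate 1 (adjusted p = 0.465). It also passed with raw medians scaled to the 75th percentile (adjusted p = 0.00495) or left unscaled (adjusted p = 0.000374). miR172c showed the same order, with a difference of -1.99 (adjusted p = 0.633).

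The miR169 family, which targets NF-YA transcription factors, had the most members, 23. None passed the test, 21 differences were negative and the median was -1.15. Both root arrays lay below both leaf arrays in 16 (14.3% of all probes). miR169f had log2 levels of 7.77 and 7.64 in roots and of 10.74 and 8.63 in leaves, a difference of -1.98 (adjusted p = 0.450). Of the 23, 7 were above background on leaf replicate 1 and 0 on any other root or leaf array. The probes of this family differ by few bases and can bind the same miRNA, so the 23 are not independent. Outside the members, 3 called probes that start 10 bases before miR169 targets, miR-460, miR-472 and miR-517, were lower in roots, with differences from -2.50 to -2.25.

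miR164 targets NAC transcription factors of organ boundaries and lateral roots. Its 4 members all had negative differences, from -1.30 to -1.01, and none passed the test. Their mismatch partners differed by -1.41 to -0.51. miR164a had log2 levels of 8.52 and 8.20 in roots and of 9.21 and 9.69 in leaves, without overlap. The leaf arrays were close to each other here, but none of the 4 arrays was above background and the adjusted p was 0.374.

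The miR171 members diverged among themselves. miR171 targets GRAS transcription factors of the SCARECROW-like kind. In all 7 miR171c probes, which overlap in sequence and are not independent, both root arrays lay below both leaf arrays (14.3% of all probes). Their differences ran from -2.49 to -0.98. Their mismatch partners differed by -2.17 to -1.12, and in 4 of the 7 by more than the probe itself. The first of them, miR171c, had 7.96 and 8.60 in roots and 12.17 and 9.36 in leaves (adjusted p = 0.492). miR171b had 8.86 and 8.64 in roots and 6.37 and 4.37 in leaves, a difference of 3.38 (adjusted p = 0.0838), with no array above background. Its raw leaf values were 29 and 1 unit, so its leaf level was near the floor. The difference was 4.38 without leaf replicate 1 and 2.37 without leaf replicate 2. It was 3.27 and 3.49 without root replicate 1 and 2. miR171b passed the test with raw medians scaled to the 75th percentile (adjusted p = 0.00989) or on the positive controls (adjusted p = 0.00903). With the normalized table floored at 50 it did not pass (difference 2.74, adjusted p = 0.170). Over the 18 members, 7 differences were positive and 11 negative, and none passed.

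Among the auxin-related miRNAs none of 11 passed the test. miR160 and miR167 target different auxin response factors, miR390 starts the tasiRNA pathway that limits others, and miR393 targets the TIR1-type auxin receptors. miR160c was bright in both organs, at 12.03 and 13.71 in roots and 12.10 and 11.20 in leaves, with overlap and a difference of 1.22 (adjusted p = 0.979). miR160a was separated, with 9.98 and 10.78 against 8.71 and 8.13 (difference 1.96, adjusted p = 0.607), and all 4 miR160 differences were positive. miR390 was the opposite, with 10.90 and 9.91 in roots against 10.95 and 13.36 in leaves and a difference of -1.75 (adjusted p = 0.511). Root replicate 1 and leaf replicate 1 were nearly equal there, so the separation rests on replicate 2. miR167b, at 11.86 and 11.32 in roots and 13.13 and 11.63 in leaves, overlapped between organs, as did both other miR167 members.

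miR156 and miR535, related in sequence, are linked to SPL transcription factors and shoot phase change. miR535a probe 2 came closest to the threshold in this list, with log2 levels of 12.72 and 12.34 in roots and of 11.25 and 10.98 in leaves. The organs did not overlap, and the difference was 1.42 ± 0.33 (SE, n = 2 per organ, adjusted p = 0.0845). Full-length miR535a gave 12.50 and 11.21 against 10.55 and 10.91, a difference of 1.12 (adjusted p = 0.697). miR156f was separated by 1.13 (adjusted p = 0.330), while miR156a and miR156e overlapped, with -0.22 and -0.68. None of the 9 members passed.

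miR159 and miR319, which target MYB and TCP transcription factors, included members that were bright in both organs. miR159c had log2 levels of 13.36 and 13.83 in roots and of 14.34 and 13.13 in leaves, all above background, with a difference of -0.14 ± 0.58. miR159a, at 11.21 and 11.14 in roots against 10.14 and 10.36 in leaves, was separated by 0.93 (adjusted p = 0.816). The list's 11 differences lay between -0.64 and 1.04.

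miR166, which targets HD-ZIP III factors of organ polarity, was above background for all 6 members on both root arrays and on leaf replicate 1. The differences ran from -0.06 to 1.02, and 5 of the 6 members overlapped between organs. miR396, which targets growth-regulating factors, could hardly be read, because miR396b stood at 11.48 on leaf replicate 1 and 5.87 on leaf replicate 2.

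In the silencing pathway, miR162 targets DICER-LIKE1, miR168 targets ARGONAUTE1 and miR403 targets ARGONAUTE2. miR168 had 10.80 and 9.31 in roots against 10.47 and 10.71 in leaves, a difference of -0.53. miR403a had 11.40 and 10.57 in roots against 11.31 and 7.95 in leaves, a difference of 1.36. Both overlapped between the organs, and none of the list's 6 members passed. The remaining families (miR394, miR477, miR479, miR828 and miR845) had 15 members, none above background on any of the 4 arrays.

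Presence was read with the study's rule, a raw median above background and a perfect match over mismatch ratio above 1.2, required here on both arrays. In roots 30 members were present, in leaves 6, and in both 3. Over all 1584 probes these counts were 61, 15 and 9, so more were present in roots there too. The 3 members present in both were both miR159c probes and miR390 probe 2, while miR390 and both miR395a probes were present in leaves only by this rule. The leaf count moved with the array: 53 members were present on leaf replicate 1 alone and 7 on leaf replicate 2 alone, against 34 and 38 on the root arrays. With the ubiquitin control left out of the background, 54 members were present in roots and 32 in leaves. With a background of the median plus 3 scaled median absolute deviations the order turned, with 57 in roots and 69 in leaves.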

How the data were processed

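LMW RNA was hybridized, 1 sample per array, to CombiMatrix arrays whose slides were stripped and reused. Intensities were extracted by the authors and deposited per array as the median and SD of replicate spots, not normalized, and in 1 table of normalized intensities, for which the authors used the quantile method on the whole array. The sources used here do not say whether local background was subtracted. No column of per-sample values was left out.

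Values under 1 were set to 1, put on the log2 scale and averaged over probes of equal sequence. limma 3.58.1 in R 4.3.3 (lmFit, eBayes) was fitted to all 12 arrays in 6 groups of 2, for shared spread, with roots minus leaves as contrast and Benjamini-Hochberg adjustment over 1584 probes, threshold 0.05. An exact permutation test of 2 against 2 arrays cannot go below p = 0.333, so none was run. The script was tested on simulated data. Precision is limited by the 2 arrays per group and by how far signals rose above background.

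The members, the lists (families grouped by known targets) and the tests were chosen with earlier results of these data known. Members named were those past the threshold, above background on both arrays of the higher organ and not overlapping, up to 30; the 4 brightest further members of each list; and other probes of the same sequences. miR399b and its probe 2, miR171b, miR160a, miR156f, miR159a, miR395n, miR399d, miR399f and the probes outside the members were named after their values were seen. Alternatives covered normalization, low values, mismatch ratio, filter, arrays in the fit, replicate block, variance model, the methods' one-way test with the Scheffe test, background rule and leaving out each array. Ties averaged, unaveraged probes and crossed replicate numbers were added after seeing the data.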

Additional observations from a re-analysis of the deposited data

How the results depend on the processing

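The 5 copper-protein calls remained in all limma fits on averaged probes except that of the mismatch ratio, where both miR397a probes were lost. The call of miR399b probe 2 was lost with the normalized table floored at 50 (difference 3.51, adjusted p = 0.0704) and without any 1 of the 4 arrays, and the filter on present probes left it untested. The 6 members higher in roots became 11 with scaling to the 75th percentile (5 lower), 10 without normalization (3 lower), 10 with scaling on the positive controls, 10 over unaveraged probes, 12 by the methods' one-way test unadjusted and 0 by it adjusted. Leaving out 1 array gave 5 to 6 members higher and 0 to 1 lower, the 1 being miR172a without leaf replicate 2. Over all probes, the 31 calls became 48 at the 75th percentile, 13 with the mismatch ratio, 14 of 67 tested among present probes, 52 and 0 by the one-way test unadjusted and adjusted, and 16 to 25 without 1 array, the 16 without root replicate 1. The members' median ranged from -0.54 (without leaf replicate 2) to 0.11. Members present in roots numbered 54 without the brightest control and 57 with the median rule, and 34 to 38 on 1 array. Members present in leaves numbered 32, 69 and, on at least 1 array, 54, and 7 to 53 on 1 array. Apart from fewer probes or arrays in the reduced fits, the cause was not tested. Of 1355 alternative values for the 70 members named by the rule, which leaves out miR399b with its probe 2 and miR171b, 1312 changed no call, 41 passed the threshold newly and 2 lost it.

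The fit with the replicate number as a block gave 6 members higher, 0 lower and 31 calls in all, and changed no call among the members. Deviations of roots and leaves correlated with r = -0.476, and crossed pairing on the 4 arrays gave 15 members higher, 22 lower and 97 calls in all. Signal over background limits leaf replicate 2, with 8 members above it.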

Other observations

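Outside the members, the probes lower in roots were led by miR-1949, with log2 levels of 10.62 and 12.49 in roots and 15.94 on both leaf arrays (difference -4.39, adjusted p = 0.00248). Its target shares 13 bases with the written sequence of a positive control for a chloroplast tRNA of histidine.
miR-1949: ccaaguggaucaaggcagug
miR-1522 had 8.83 and 10.20 in roots and 12.82 on both leaf arrays (difference -3.30, adjusted p = 0.0315), and shares no more than 7 bases with any member. These were the 2 of the 7 lower probes that were above background on both leaf arrays. Of the 18 higher probes outside the members, 8 were above background on both root arrays.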
